A study of Mus musculus with 60 samples.

Results

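Heme oxygenase and the other enzymes of heme turnover were followed in the lungs of mice that had inhaled iron oxide particles. The members were 6 genes chosen by name, Hmox1, Hmox2, Blvra, Blvrb, Alas1 and Fech, of 18193 genes measured. They were represented by 10 of the 45037 probe sets that were not array controls, and for each gene the probe set with the highest mean over the 60 arrays was used.

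Heme, the iron porphyrin of hemoglobin, cytochromes and many enzymes, is built in a pathway that starts with 5-aminolevulinate synthase (Alas1 in most tissues, Alas2 in red cell precursors) and ends with ferrochelatase (Fech), which inserts the iron. It is broken down by the heme oxygenases, which open the ring and release ferrous iron, carbon monoxide and biliverdin. Hmox1 is the inducible form, known in lung as a gene that responds to oxidants, heat, heme and inflammatory signals, and Hmox2 is the constitutive form. The biliverdin reductase Blvra then makes bilirubin, and Blvrb, the other biliverdin reductase, acts also as a flavin reductase.

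Male Balb/c mice, whose age the labels do not state, breathed either an aerosol of superparamagnetic iron oxide nanoparticles (SPIO) or, as sham controls (CON), filtered and humidified helium, oxygen and air, for 4 h through the nose in restraint tubes. Mice were killed at 0, 6, 24, 48, 96 or 168 h after exposure, with 5 mice in each of the 12 groups, and the right diaphragmatic lobe of each mouse was hybridised to its own array, so no groups share mice. All mice, controls included, were restrained and exposed to the carrier gas. Per the study's methods the 96 h mice were also studied by plethysmography and the 168 h mice lived in metabolism cages and had a liquid diet, so time is confounded with handling among the later groups. The time of day of each kill and any hybridisation batch are not stated in the labels or methods. In a whole lobe, fewer cells of a type and less RNA per cell cannot be told apart.

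Values are log2 RMA values (an array summary on the log2 scale, on which 1 unit is a 2-fold difference) and levels are not compared between probe sets. A gene was called at an adjusted p under 0.05 in a limma fit of all 12 groups, with Benjamini-Hochberg adjustment over 18193 genes at each time. The lung markers were as the label says: 11 of the 12 had medians above 10, among them Sftpc at 14.93 and Scgb1a1 at 15.03, and the ciliated cell gene Foxj1 was at 7.89. Array 1 of the sham mice at 0 h stood apart, with albumin (Alb) at 14.02 against at most 11.35 on any other array and Xist, which female cells transcribe, at 11.94 against at most 6.02. Its mean over 12 hepatocyte markers was 10.83 against at most 8.64 elsewhere. No hepatocyte marker was called at any of the 6 times, but errors were large (SE 1.06 for Alb), so the lack of calls says little. The list's median SPIO minus CON at 0 h was -0.39, and 0.58 without this array. Array 3 of the SPIO mice at 24 h had the lowest mean of the Y-linked genes, 5.6 against at least 6.77 on the others. In fits without sham array 1 at 0 h or without SPIO array 3 at 24 h no call of the 6 genes at that time was lost (at 24 h limma adjusted p = 0.0141 for Hmox1, 0.0178 for Blvra, 0.0383 for Blvrb and 0.0395 for Fech). Changes in these fits of other reported calls or list counts at 0 and 24 h are given where they stand.

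Sequence upstream of a start of transcription is shown for Alas1, Blvra and Blvrb, which were called at 0, 24 or 48 h, so that it can be read beside their levels. Sequences of Hmox1 and Fech, which were also called, are not shown. Each is the 250 bases before a RefSeq transcript start of build GRCm38.p6 (the gene's outermost start for Alas1 and Blvrb, and a start 28 bases inside the gene for Blvra), written 5′ to 3′ on the gene's strand, at chr9:106247955-106248204 (minus strand) for Alas1, chr2:127070407-127070656 (plus strand) for Blvra and chr7:27447728-27447977 (plus strand) for Blvrb. Capitals mark matches, on either strand, to any of 6 short motifs that were searched.
Alas1: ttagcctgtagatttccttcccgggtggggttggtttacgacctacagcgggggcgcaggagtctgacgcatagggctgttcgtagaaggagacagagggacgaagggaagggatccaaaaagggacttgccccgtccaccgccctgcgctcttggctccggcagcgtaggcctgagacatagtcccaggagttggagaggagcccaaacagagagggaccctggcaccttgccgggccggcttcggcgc
Blvra: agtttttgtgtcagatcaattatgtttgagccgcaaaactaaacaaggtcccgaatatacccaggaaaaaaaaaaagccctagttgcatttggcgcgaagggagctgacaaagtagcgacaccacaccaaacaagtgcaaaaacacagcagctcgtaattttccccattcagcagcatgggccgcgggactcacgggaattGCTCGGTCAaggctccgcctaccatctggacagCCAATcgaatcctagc
Blvrb: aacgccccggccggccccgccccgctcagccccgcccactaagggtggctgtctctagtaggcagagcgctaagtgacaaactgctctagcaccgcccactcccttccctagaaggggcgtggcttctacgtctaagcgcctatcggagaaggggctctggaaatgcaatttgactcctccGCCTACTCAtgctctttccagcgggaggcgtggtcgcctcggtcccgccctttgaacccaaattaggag
The motifs were TGANNNNGC (the core of the antioxidant response element, to which NRF2 and the heme-sensing repressor BACH1 bind), TGANTCA (AP-1, some of whose matches can overlap the former), CACGTG (E-box), AGGTCA (bound by ROR and REV-ERB receptors), GCATGC (core of the NRF1 motif) and CCAAT. The Blvra window held TGANNNNGC, on the minus strand with its first base at -49, and CCAAT at -16. The Blvrb window held TGANNNNGC on the minus strand at -69, and the window of its other annotated start, 4440 bases downstream and not shown, held it at -196 and -19. Among 32851 RefSeq windows of the same length, 35.2% held TGANNNNGC, 33.8% CCAAT, 14% AGGTCA, 6.7% TGANTCA, 6.7% GCATGC and 6.0% CACGTG. The Alas1 window shown matched none of the 6, and the window of its other annotated start, which lies downstream, held GCATGC at -193. Matches are a description of letters, not of bound sites.

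Of the 6 genes Hmox1 had the largest SPIO minus CON difference at 0, 6 and 24 h. It was higher immediately after exposure and at 6 h, lower than its sham group at 24 h, and not called at 48, 96 or 168 h. Immediately after exposure the 5 SPIO arrays read 9.31, 9.83, 9.36, 9.44 and 9.96 and the 5 sham arrays 7.67, 7.71, 8.26, 8.12 and 8.36. Every SPIO array was above every sham array, with a gap of nearly a log2 unit between the groups. The difference was 1.55 ± 0.18 (SE) on the log2 scale, a 2.94-fold higher level (95% interval 1.19 to 1.92 on the log2 scale; limma adjusted p = 2.18e-07), and Hmox1 had the smallest p of the 18193 genes at this time. Without array 1 of the sham mice it was 1.47 with an adjusted p of 2.95e-06 in limma. At this time 3.67% of genes were called (2.56% higher and 1.11% lower) and 4.25% had groups that did not overlap.

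At 6 h the SPIO arrays read 9.10, 9.33, 9.0, 8.82 and 8.50 and the sham arrays 8.04, 7.79, 7.77, 7.67 and 7.96. The groups again did not overlap, although the highest sham and the lowest SPIO array were closer than at 0 h. The difference was 1.11 ± 0.18 (SE), or 2.15-fold (limma adjusted p = 1.26e-04). At 6 h 1.17% of genes were called, Hmox1 was the only member among them, and 3.36% of genes had groups that did not overlap.

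At 24 h the order was the other way round. The SPIO arrays read 8.51, 7.93, 7.94, 7.99 and 8.08 and the sham arrays 8.02, 8.69, 9.45, 8.58 and 9.09. Of the SPIO arrays 3 lay below all sham arrays, and the groups overlapped because sham array 1 read below SPIO arrays 1 and 5. Hmox1 was lower by 0.68 ± 0.18 on the log2 scale (SPIO minus CON -0.68; limma adjusted p = 0.00458), and -0.64 without SPIO array 3 (limma adjusted p = 0.0141). This sham group had the largest spread of the 12 (SD 0.54, n = 5) and the highest mean of the 6 sham groups, 8.77 against 7.85 to 8.27 at the other times. The SPIO mean at 24 h, 8.09, lay within that range. The call was lost when 24 h was fitted alone (adjusted p = 0.0604 in limma). The calls at 24 h covered 23.9% of genes (20.3% higher and 3.66% lower).

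Ordered by level, the Hmox1 group means ran from SPIO at 0 h (9.58 ± 0.30, SD, n = 5) and SPIO at 6 h (8.95 ± 0.31) through sham at 24 h (8.77 ± 0.54) and sham at 48 h (8.27 ± 0.33) to a run of 8 groups between 8.14 and 7.85, which ended with sham at 6 h. Only the step from the top group to the next, 0.63, was larger than both SDs of the groups it separates. The SPIO minus CON differences at 48, 96 and 168 h were -0.13, 0.11 and -0.21, with limma adjusted p values from 0.588 to 0.808. The 95% intervals at these times ran from -0.57 to 0.48 overall.

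The change of the Hmox1 response with time was itself tested, as the effect at each later time minus the effect at 0 h; these contrasts share the arrays at 0 h. For the effect at 24 h it was -2.23 ± 0.25 (SE; limma adjusted p = 1.37e-07), and for the effects at 48, 96 and 168 h it was -1.69, -1.44 and -1.77 (limma adjusted p = 3.36e-04, 0.00589 and 1.09e-04). At 6 h it was -0.45 (limma adjusted p = 0.479). In order of time from 6 h the share of genes called in these contrasts was 0.885%, 1.18%, 0.61%, 0.022% and 0.044%. Of the other 5 members none was called in any of the contrasts, with limma, and their unadjusted p was under 0.05 only for Alas1 at 48, 96 and 168 h and Hmox2 at 96 h. In the test over all 5 contrasts together, which called 8.77% of genes, Hmox1 had an adjusted p of 4.83e-08 in limma and the other members 0.0615 to 0.235.

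Hmox2, the constitutive oxygenase, was not called at any of the 6 times. At 0 h its SPIO arrays read 9.88, 9.78, 9.84, 9.69 and 9.88 and its sham arrays 9.96, 9.87, 9.84, 9.93 and 9.79, and the groups overlapped. The SPIO minus CON difference was -0.06 there (95% interval -0.20 to 0.07), 0.05 at 6 h and between 0.12 and 0.13 from 24 to 96 h. At 168 h it was -0.18 ± 0.07 (SE), with an unadjusted p of 0.00931 and an adjusted p of 0.142 in limma. At 24 h, without sham array 2, the difference was 0.18 and was called (limma adjusted p = 0.0347). All 12 group means lay between 9.80 and 10.04, and no step between neighbours in that order exceeded the larger of their SDs.

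Taking Hmox2 as a comparison within each array, the Hmox1 minus Hmox2 log2 difference was -1.85 ± 0.37 (SD, n = 5) in sham and -0.23 ± 0.30 in SPIO mice at 0 h, a contrast of 1.62 (1.51 to 1.72 when single arrays were left out). It was 1.05 at 6 h and -0.80 at 24 h. The exact permutation p was 0.0079 at 0 h and at 6 h, the smallest that splits of 10 mice into 5 and 5 can give, and 0.0159 at 24 h (two-sided exact permutation tests, adjusted over 6 times 0.0237, 0.0237 and 0.0318). At 48, 96 and 168 h the contrast was -0.25, -0.02 and -0.03, with exact permutation p values from 0.127 to 0.865.

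**Figure D1:**
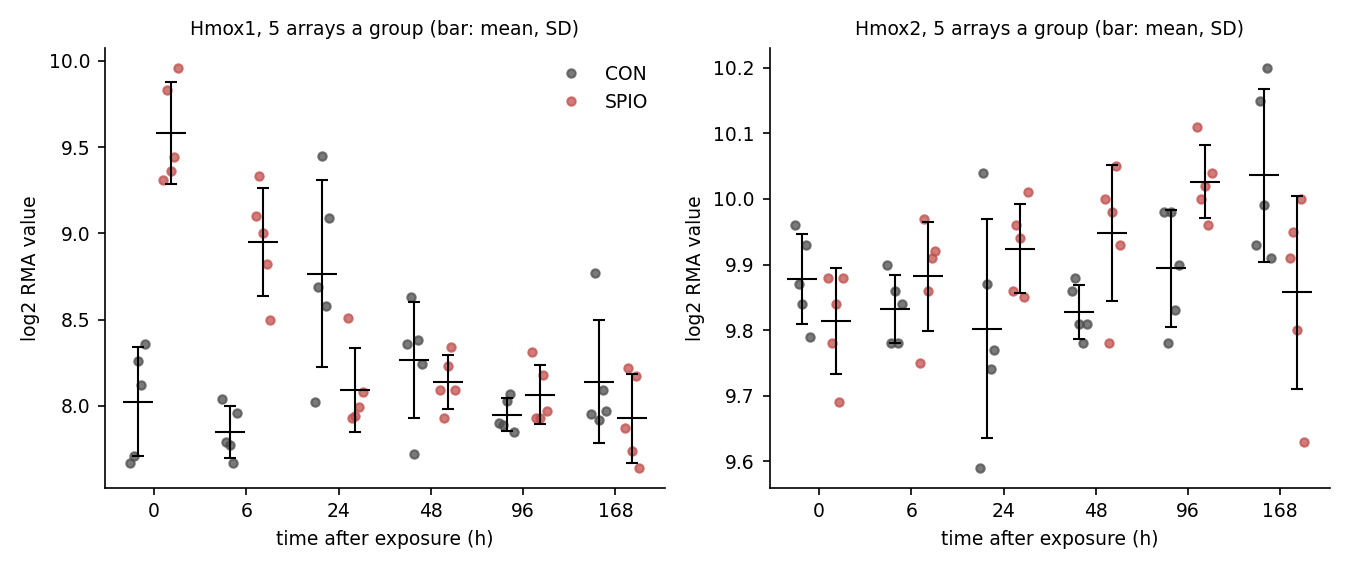
Log2 RMA values of Hmox1 (left) and Hmox2 (right) on each of 60 arrays against time after exposure in h, sham (CON) in grey and SPIO in red, with the mean and SD of each group of 5. Hmox1 in SPIO mice lay at 9.31 to 9.96 at 0 h, above the sham arrays, while at 24 h the sham arrays spread from 8.02 to 9.45. Hmox2 groups overlapped at all times shown, on a narrower axis.

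The genes whose level went most like Hmox1 over the 60 arrays were the neutrophil chemokines Cxcl2 (Pearson r = 0.76), Cxcl1 (0.74), Cxcl3 (0.71) and Cxcl5 (0.70), then Mab21l3 (0.68), beside a median r of 0.00 over all genes. The arrays share treatment and time, so these are descriptions. SPIO minus CON differences for the chemokines, in this order, were 1.48, 1.87, 2.20 and 3.33 at 0 h and 1.68, 2.38, 2.66 and 3.31 at 6 h. At 24 h, where Hmox1 was lower, they were 0.07, 0.54, -0.03 and 0.35. No neutrophil marker was called at 0 or 6 h (0 of 8 measured), and the array means of the list were 8.79 to 10.06 on SPIO and 9.02 to 10.29 on sham arrays at 0 h. Of the monocyte markers 2 of 9 were higher at 0 h, Cx3cr1 by 0.67 and Ccr2 by 1.34, beside 2.56% of all genes. Without sham array 1 the count was 4 of 9, with Ms4a4c and Plac8, beside 2.61% of all genes. No alveolar macrophage marker was called at 0 h (0 of 14), and 1 was lower without sham array 1. The part of these cell types in the Hmox1 difference was not tested.

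Alas1, the entry enzyme of heme synthesis, moved against Hmox1 at 0 h. The SPIO arrays read 11.32, 11.38, 11.59, 11.57 and 11.37 and the sham arrays 11.75, 12.17, 11.86, 11.76 and 11.78. Every SPIO array was below every sham array, and at 0 h 4.25% of all genes had groups that did not overlap. The SPIO minus CON difference was -0.42 ± 0.10 (SE; limma adjusted p = 0.00943), so that the level on the linear scale fell by 25.4%. Without sham array 1 the difference was -0.45 (limma adjusted p = 0.00726). The second Alas1 probe set, whose design suffix marks probes that can bind other transcripts, read 6.01, 6.20, 6.34, 6.31 and 6.10 in SPIO mice and 6.78, 6.80, 6.54, 6.49 and 6.58 in sham mice. It too did not overlap, with a difference of -0.44 (limma over all probe sets, adjusted p = 0.00566; 2.63% of probe sets were called at 0 h), and -0.41 without sham array 1 (limma adjusted p = 0.0157). The call of the main probe set was lost when 0 h was fitted alone (limma adjusted p = 0.0673).

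At 24 h the difference for Alas1 was -0.25 with an adjusted p of 0.0566 in limma, and 4 of 5 SPIO arrays lay below all sham arrays. The second probe set had -0.35 there and was called over all probe sets (limma adjusted p = 0.00837; 16.4% of probe sets called). With each array centred on its median the main probe set was at -0.43 (limma adjusted p = 7.51e-04). From 48 to 168 h the differences were -0.04 to -0.05, none called.

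Alas1 also changed with time among the mice that had inhaled no particles. Its sham means were 11.87 ± 0.18 (SD, n = 5) at 0 h, 11.40 ± 0.24 at 6 h and 11.75 to 11.84 later, with an F test over the 6 times giving an adjusted p of 0.00148 in limma. The SPIO group at 6 h was the lowest of the 12 (11.26 ± 0.11), below the sham group at 6 h by less than the SD of that group. Among sham mice 41% of all genes varied with time in that test, and of the members all but Blvrb did (limma adjusted p = 6.68e-04 for Hmox1, 0.0350 for Hmox2, 0.0352 for Blvra, 0.0370 for Fech and 0.0867 for Blvrb). Among SPIO mice 7.13% of genes varied with time. Hmox1 (limma adjusted p = 3.80e-10), Alas1 (0.00136), Blvrb (0.00303) and Fech (0.00774) were among them, and Hmox2 (0.212) and Blvra (0.277) were not.

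Clock genes also differed at 0 h, in both directions. Of 17 measured, 2 were higher and 6 lower at 0 h, beside 2.56% and 1.11% of all genes. The median SPIO minus CON of the list was -0.36 beside 0.035 over all genes. Ciart, a repressor of the clock, was lower by 0.80 on the log2 scale, Nr1d2, a REV-ERB receptor that binds heme, by 0.67, and Dbp, an output factor, by 1.39. The 2 higher genes were Npas2, by 1.01, and Arntl, by 0.925. Over the 60 arrays Alas1 correlated with the mean of the 17 clock genes (Pearson r = 0.74, a description over arrays that share groups). That mean joins genes that differed in opposite directions. Its most similar genes were Cracdl (0.75), Nr1d2 (0.74) and Dbp (0.72), beside a median r of -0.06. From 6 h on, in order of time, 1, 1, 0, 0 and 0 clock genes were higher and 2, 5, 4, 0 and 1 lower (at 24 h 0 and 3 without SPIO array 3). Of all genes 0.759%, 20.3%, 10.7%, 0.522% and 0.566% were higher and 0.407%, 3.66%, 1.89%, 0.885% and 1.62% lower. The list's medians at these times were 0.13, -0.08, 0.02, -0.08 and -0.06, beside 0.035, 0.090, 0.043, 0.065 and 0.015 over all genes. Whether the clock genes had a part in the Alas1 difference was not tested.

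**Figure D2:**
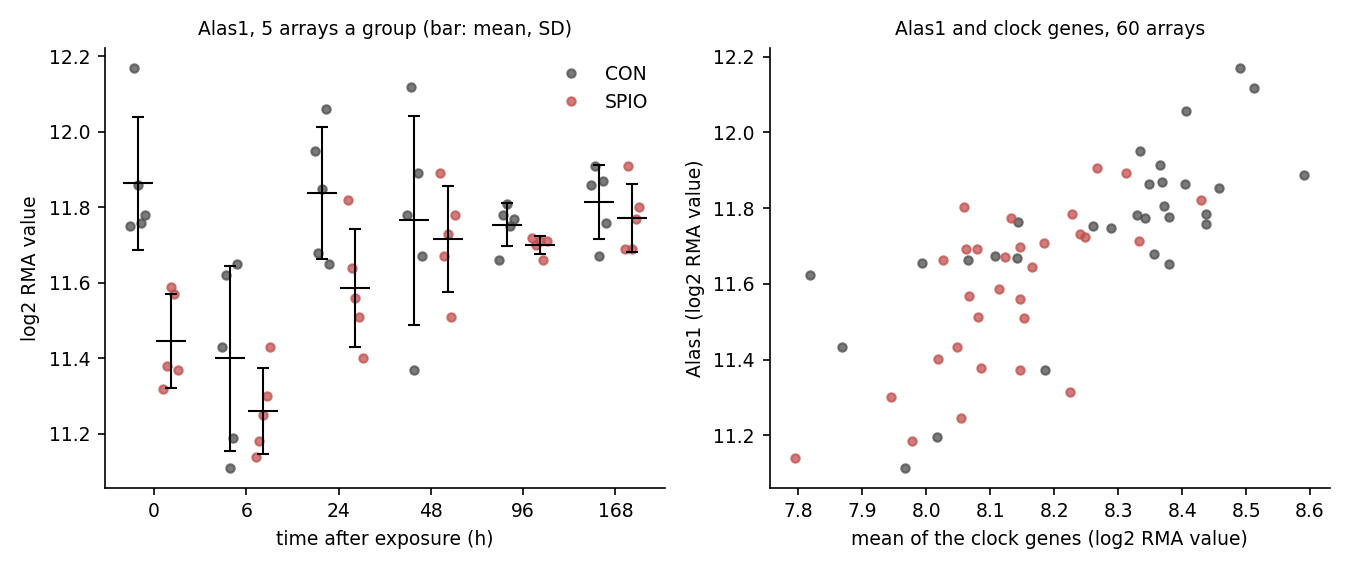
Left, log2 RMA values of Alas1 on each array against time after exposure in h, with the mean and SD of each group of 5 (sham grey, SPIO red). Right, Alas1 against the mean of 17 clock genes on the 60 arrays, both in log2 RMA values. At 0 h the SPIO arrays (11.32 to 11.59) lie below the sham arrays (11.75 to 12.17), and arrays with lower clock gene means have lower Alas1 (r = 0.74).

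The biliverdin reductases were called higher in SPIO mice at 24 h, and Blvra also at 48 h. For Blvra at 24 h the SPIO arrays read 8.91, 9.21, 9.14, 9.0 and 9.24 and the sham arrays 8.69, 9.20, 8.72, 8.65 and 8.43, and the groups overlapped through sham array 2. The difference was 0.36 ± 0.10 (SE), or 1.28-fold (limma adjusted p = 0.00752). At 48 h the SPIO arrays read 9.17, 9.01, 9.15, 9.37 and 9.09 and the sham arrays 8.90, 8.95, 8.76, 8.72 and 8.63. Those groups did not overlap, and the difference was 0.37 ± 0.10, or 1.29-fold (limma adjusted p = 0.0120, and 0.0549 without SPIO array 4). The sham means at 24 and 48 h, 8.74 and 8.79, were the lowest of the 12 group means. At the other times the sham means were 8.86 to 9.04. The SPIO means at 24 and 48 h were 9.10 and 9.16. Blvra was the only member called at 48 h, when 12.5% of genes were called (10.7% higher, 1.89% lower) and 7.68% did not overlap.

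At 96 h all 5 SPIO arrays (9.17, 9.33, 9.21, 9.29 and 9.40) were again above the sham arrays (8.98, 8.98, 9.0, 9.11 and 8.99) for Blvra, as happened in either direction for 4.11% of genes. The difference of 0.27 ± 0.10 had an adjusted p of 0.192 in limma and was not called, and with 1.41% of genes called at 96 h no member was. The same held at 168 h, with 2.19% of genes called, where Blvra was at 0.08. Immediately after exposure and at 6 h its differences were 0.11 and 0.00. The mean of the 6 effects, which called 30.3% of all genes, was 0.20 ± 0.04 for Blvra (limma adjusted p = 2.05e-04).

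For Blvrb at 24 h the SPIO arrays read 8.54, 8.59, 8.68, 8.65 and 8.67 and the sham arrays 8.17, 8.54, 8.26, 8.44 and 8.12. The groups met at 8.54, and the SPIO arrays lay closer together than the sham arrays. The difference was 0.32 ± 0.10 (SE), or 1.25-fold (limma adjusted p = 0.0174, and 0.0673 without sham array 5). At 6 h 4 of 5 SPIO arrays were above all sham arrays (difference 0.20, limma adjusted p = 0.427), and the 6 h SPIO group had the highest Blvrb mean of the 12, 8.75 ± 0.09 (SD, n = 5). Averaged over the 6 times Blvrb was higher by 0.11 (limma adjusted p = 0.0441). For the other members this mean was 0.29 for Hmox1 (0.00165), -0.16 for Alas1 (0.00172), 0.11 for Fech (0.120) and 0.03 for Hmox2 (0.429), with limma adjusted p values in brackets.

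These differences of 0.3 to 0.4 at 24 and 48 h depended on how arrays were scaled. With each array centred on its median over genes, the SPIO minus CON median of all genes moved by -0.18 at 24 h and -0.13 at 48 h, and the higher share of the called genes at 24 h went from 84.7% to 28% (52.9% with quantile normalization repeated). At 48 h it went from 85% to 33.5% with centring and to 61.1% with quantile normalization. Under centring Blvra was at 0.18 (adjusted p = 0.164) and Blvrb at 0.14 (0.209) at 24 h, and Blvra at 0.24 (0.0873) at 48 h, all from limma and none called. The Hmox1 differences at 0, 6 and 24 h were 1.52, 1.065 and -0.86 under centring, and each was still called.

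**Figure D3:**
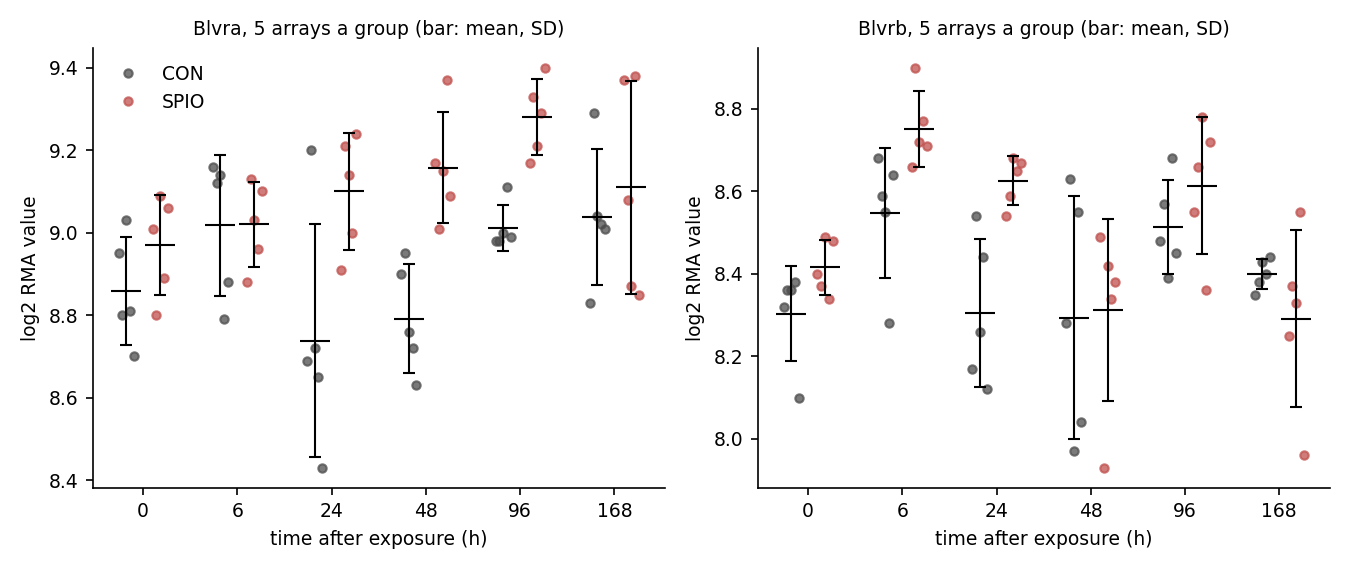
Log2 RMA values of Blvra (left) and Blvrb (right) on each array against time after exposure in h, sham grey and SPIO red, with the mean and SD of each group of 5. For Blvra the SPIO arrays lie above the sham arrays at 48 and 96 h without overlap, and for Blvrb they lie at 8.54 to 8.68 at 24 h against 8.12 to 8.54 in sham mice.

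Cell type markers also differed at 24 h, when 20.3% of all genes were called higher and the median difference over all genes was 0.090. Of 9 monocyte markers 7 were higher (median SPIO minus CON 1.39; 6 with centred arrays), with array means of 9.10 to 9.84 in SPIO and 7.88 to 9.21 in sham mice. Of 14 alveolar macrophage markers 4 were higher (median 0.30, array means 8.39 to 8.88 in SPIO and 7.96 to 8.92 in sham mice; 4 higher and 1 lower with centred arrays, where 4.55% of all genes were called higher). Of 8 neutrophil markers 1 was higher, Il1r2 by 1.46 (limma adjusted p = 0.0476, and 0.104 without SPIO array 3), with a list median of 0.69 and array means of 8.52 to 10.6 in SPIO and 7.55 to 9.85 in sham mice. At 48 h 3 of 14 macrophage markers and no monocyte marker were called, beside 10.7% of all genes called higher. With centred arrays 1 macrophage marker was called higher at 48 h, beside 2.95% of all genes. Over the 60 arrays Blvra correlated with the macrophage marker mean at r = 0.62, with the monocyte mean at 0.26 and with the neutrophil mean at -0.03, and Blvrb at 0.03, -0.10 and -0.31. The genes most like Blvra were Nagk (r = 0.86), Nudt21 (0.85) and Fam20c (0.84), and those most like Blvrb were Rex1bd (0.86), Fmc1 (0.85) and Smim27 (0.84), with medians over all genes of 0.13 and 0.11. For Hmox2 they were Tmem14c (0.80), Lamb3 (0.77) and Cops9 (0.77). The part of the marked cell types in these differences was not tested.

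Fech, the last enzyme of heme synthesis, gave different readings on its 4 probe sets. On the main one the SPIO arrays at 24 h read 10.46, 10.70, 10.80, 10.87 and 10.74 and the sham arrays 10.36, 9.88, 10.18, 10.69 and 10.44. Of the SPIO arrays 4 were above all sham arrays, and sham array 2 was the lowest of the 60. The difference was 0.40 ± 0.13 (SE), or 1.32-fold (limma adjusted p = 0.0169), and without sham array 2 it was 0.295 with a limma adjusted p of 0.0835. The call was also lost with median-centred arrays. The sham mean at 24 h, 10.31, was the lowest of the 12 group means. The SPIO mean, 10.71, lay within the sham means at the other times, 10.31 to 10.72. The other 3 probe sets at 24 h had -0.14, -0.11 and -0.22, with limma adjusted p values from 0.194 to 0.604 over all probe sets. The direction for the gene therefore differed between probe sets, and their mean gave -0.02. That mean includes the fourth probe set, which was dim (4.69 over the 60 arrays) and had r = -0.12 with the main one. The second had r = 0.65 with the main one and the third 0.12. At the other times the main probe set gave differences from -0.10 to 0.23, none called.

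The main Fech probe set went with genes of red cell precursors over the 60 arrays, Alas2 and the mitochondrial iron importer Slc25a37 (r = 0.90 each), then Fam220a (0.89), beside a median r of 0.07. The second Fech probe set had r = 0.74 with Alas2, the third 0.12 and the fourth -0.05. Of 11 erythroid markers Alas2, the globin gene Hbb-b2 and the anion exchanger Slc4a1 had medians of 10.31, 9.30 and 7.65, and the other 8 were below 6, with Rhag at 3.13. At 24 h Alas2 differed by 0.42 without being called, 0 of 11 erythroid markers were higher and 1 lower (Car1, -0.40), and the array means of the list were 5.35 to 5.67 in SPIO and 5.05 to 5.75 in sham mice. Whether blood in the lobe had a part in the Fech difference was not tested.

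**Figure D4:**
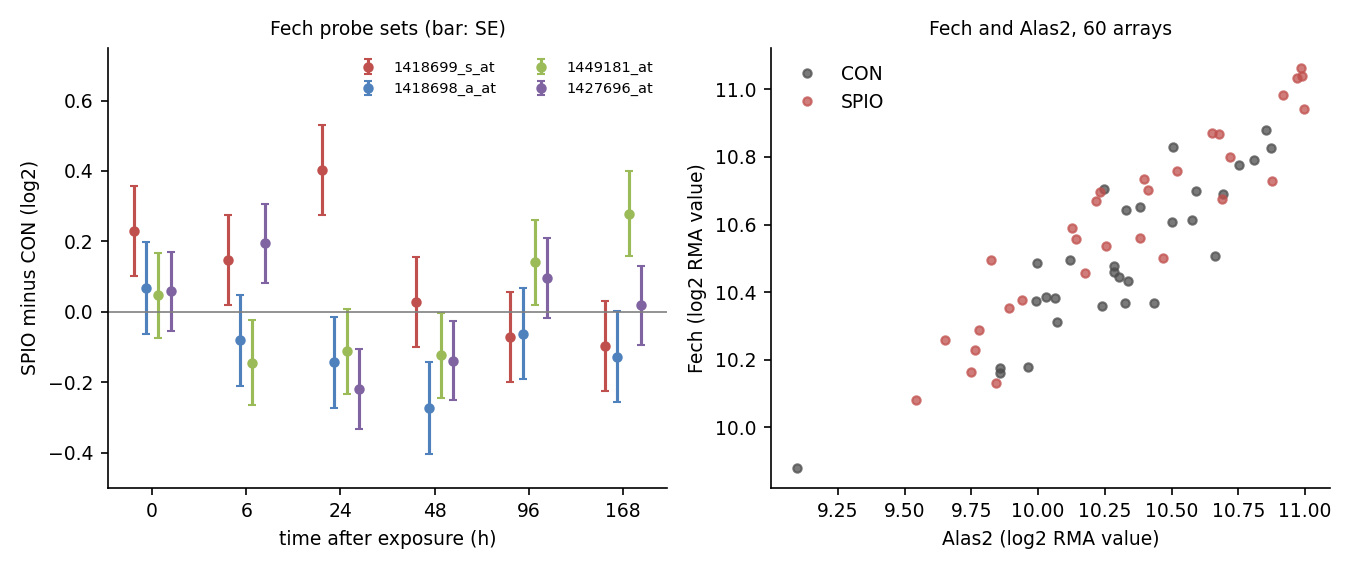
Left, SPIO minus CON difference in log2 for each of the 4 Fech probe sets against time after exposure in h, with the SE from limma. Right, the main Fech probe set against Alas2 on the 60 arrays, in log2 RMA values, sham grey and SPIO red. At 24 h the main probe set is at 0.40 and the others at -0.11 to -0.22, and Fech rises with Alas2 across arrays of both treatments (r = 0.90).

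Counted over the 6 members and in order of time, 2, 1, 4, 1, 0 and 0 were called, beside 3.67%, 1.17%, 23.9%, 12.5%, 1.41% and 2.19% of all genes. At 24 h 3 were higher (Blvra, Blvrb, Fech) and 1 lower (Hmox1). At an unadjusted p under 0.05 Blvra passed at 96 h and Hmox2 at 168 h, and no other member did at these times, where the methods' test also called 0. Across the members the correlations over 60 arrays were low for Hmox1 (r from -0.30 with Alas1 to 0.16 with Fech) and highest for Hmox2 with Blvra (0.66), as descriptions.

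**Figure D5:**
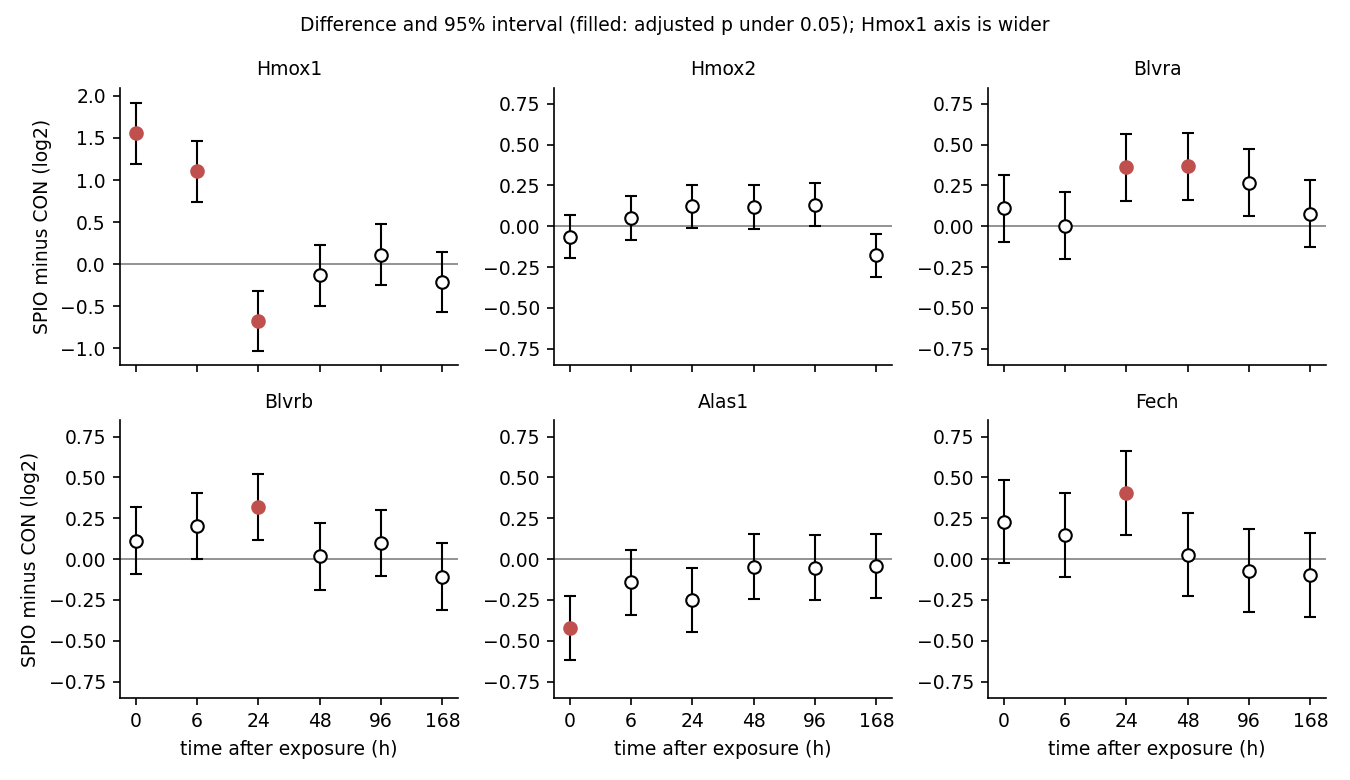
SPIO minus CON difference on the log2 scale with its 95% interval from limma, for each of the 6 genes against time after exposure in h. Filled points had an adjusted p under 0.05, and the Hmox1 axis is wider. Hmox1 runs from 1.55 at 0 h to -0.68 at 24 h, Alas1 is lowest at 0 h (-0.42), and Blvra is highest at 24 and 48 h (0.36 and 0.37).

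Other genes of heme synthesis were called at 24 and 48 h. Of the 8 measured (Alas1 and Fech included), 0 were higher and 1 lower at 0 h, 3 higher and 0 lower at 24 h, 1 higher at 48 h, and none was called at 6, 96 or 168 h. Of all genes 20.3% were called higher at 24 h and 10.7% at 48 h. With centred arrays 1 was higher (Urod) and 2 lower (Alas1 and Cpox) at 24 h, and Urod was higher at 48 h. Of all genes 4.55% were higher and 11.7% lower with centred arrays at 24 h, and 2.95% and 5.87% at 48 h. Urod, which decarboxylates uroporphyrinogen, was higher by 0.38 ± 0.07 (SE) at 24 h and by 0.45 ± 0.07 at 48 h (limma adjusted p = 8.42e-05 and 1.92e-05). Its groups did not overlap at 48 h, as for 7.68% of all genes. Under centring it was at 0.20 and 0.32 and was still called. Alad, which joins the aminolevulinate units, was higher by 0.39 ± 0.11 at 24 h (limma adjusted p = 0.00561), and 0.21 without a call under centring. At 0 h it was called higher (0.35) only without sham array 1. Medians of the list were 0.08, 0.05, 0.26, 0.02, -0.06 and -0.07 in order of time, beside 0.035, 0.035, 0.090, 0.043, 0.065 and 0.015 over all genes.

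Of 19 genes of heme transport and binding, none was called at 0, 6, 96 or 168 h, 7 were higher at 24 h and 3 at 48 h, beside the 20.3% and 10.7% of all genes. The porphyrin transporter Abcb6 was higher by 0.52 at 24 h, the mitochondrial outer membrane protein Tspo by 0.28 and the exporter Abcg2 by 0.42. At 48 h Lrp1, a receptor for heme-hemopexin, was higher by 0.54, the hemoglobin scavenger receptor Cd163 by 0.82 and Pgrmc2, a heme chaperone, by 0.22. The list's medians were 0.22 and 0.14 at these times, beside 0.090 and 0.043 over all genes. With centred arrays 1 gene of the list was higher and 1 lower at each time. Of all genes 4.55% were higher and 11.7% lower in that setting at 24 h, and 2.95% and 5.87% at 48 h. Abcb6 was at 0.34 at 24 h, Lrp1 at 0.41 at 48 h, and Pgrmc1, a heme-binding membrane protein, at -0.26 and -0.28.

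Among 16 regulators of heme genes, 3 were lower at 0 h (Nr1d2, Nr1d1 and Atf4, the last a stress factor lower by 0.31), beside 1.11% of all genes. The Nr1d1 call was lost without sham array 1 (-0.78, limma adjusted p = 0.12). In that fit 3 regulators were again lower, so another had gained a call. At 24 h Nfe2l2, which encodes NRF2, the activator of antioxidant genes, was lower by 0.35 ± 0.08 (SE; limma adjusted p = 9.72e-04). Nr1d2 was lower by 0.47 (limma adjusted p = 0.0606 without SPIO array 3). Keap1, which holds NRF2 in check, was higher by 0.19 (0.005 under centring, not called). These 24 h counts of 1 higher and 2 lower stood beside 20.3% and 3.66% of all genes. They became 2 higher and 1 lower without SPIO array 3, beside 17.4% and 3.04% of all genes. With centred arrays 0 regulators were higher and 4 lower at 24 h, beside 4.55% and 11.7% of all genes. At 48 h Nr1d1 and Nfe2l2 were lower, beside 1.89% of all genes. At 6 h Nr1d2 was lower by 0.87, beside 0.407% of all genes, and no regulator was called at 96 or 168 h. Of 8 antioxidant targets Txnrd1, thioredoxin reductase, was higher by 0.35 at 0 h (limma adjusted p = 0.0568 without sham array 1), beside 2.56% of all genes. Gclc, which limits glutathione synthesis, was lower by 0.80 at 24 h and by 0.72 at 48 h, beside 3.66% and 1.89% of all genes. Gsr, glutathione reductase, was higher by 0.30 at 24 h, a call lost without SPIO array 3 and under centring, and no target was called at 6, 96 or 168 h. With centred arrays 0 targets were higher and 3 lower at 24 h. Of 4 iron transport and storage genes the transferrin receptor Tfrc was lower by 0.62 ± 0.12 (SE) at 0 h without overlap (limma adjusted p = 0.00134). At 0 h 1.11% of all genes were called lower and 4.25% had groups that did not overlap. Slc11a2, an iron importer, was higher by 0.26 at 24 h and 0.34 at 48 h, beside 20.3% and 10.7% of all genes. Neither Slc11a2 call was kept under centring, and the 24 h call was lost also without SPIO array 3.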

How the data were processed

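Lung RNA of 60 mice was hybridised to Affymetrix mouse whole-genome expression arrays, 1 per mouse. The authors deposited log2 values per probe set made by RMA (background correction, quantile normalization and summarisation of probes, per the submitters' processing notes; version not stated). RMA compresses low signals and evens out the probe signals of arrays, and the array medians of the deposited values ran from 5.54 to 5.64. The number of arrays limits precision, since arrays give no read depth; no dates or batches were used. The groups came from the sample titles.

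Of 45101 probe sets, 64 controls were left out. In the platform annotation 34945 had 1 gene symbol, 932 several and 9160 none, and each of 18193 genes was read from its brightest probe set by mean over arrays. Limma 3.58.1 in R 4.3.3 fitted the 12 groups together (48 residual degrees of freedom), adjusting p-values by Benjamini-Hochberg at each time, with no fold minimum. The study's own test was run as an alternative. Exact permutation tests used scipy 1.17.1. The fit was tested on simulated data. Named genes were the 6 members, at most 3 called genes of each list at each time by smallest p (and the clock genes Npas2 and Arntl at 0 h), and the genes most correlated with each member (5 for Hmox1, 3 for the others), passing over unnamed gene models. The marker genes, clock genes and lists count as lists. Counts over a list cover the genes with a probe set of their own in the tables used, and some listed genes are not reported here. The members, lists and tests were chosen with earlier results of these data known. Nothing says more of the replicates than that they are separate mice. Promoter windows came from RefSeq (GRCm38.p6).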

Additional observations from a re-analysis of the deposited data

Results flagged for a closer look

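The Hmox1 response differed between times: the effects of SPIO at 24, 48, 96 and 168 h, less that at 0 h, were -2.23, -1.69, -1.44 and -1.77, each past the threshold in limma and each sharing the arrays at 0 h.

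Of 72 groups of 5 arrays checked over the 6 members, 6 held an array set far from the other 4 by Dixon's test, which flags about 1 group in 20 by chance. Hmox1 was 8.77 on array 2 of the sham mice at 168 h, against 7.92 to 8.09 on the others, and 8.51 on array 1 of the SPIO mice at 24 h, against 7.93 to 8.08. Blvra was 9.11 on array 4 of the sham mice at 96 h (others 8.98 to 9.0). Blvrb was 8.10 on array 5 of the sham mice at 0 h (others 8.32 to 8.38) and 7.93 on array 2 of the SPIO mice at 48 h (others 8.34 to 8.49). Alas1 was 12.17 on array 2 of the sham mice at 0 h (others 11.75 to 11.86). None of these arrays was the one that stood apart in liver genes.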

How the results depend on the processing

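Of 396 values (36 differences under 11 settings other than leaving out arrays), 353 kept their direction and side of the threshold, 25 lost and 5 gained a call, and 13 turned sign; 1 of the turned values, Fech at 24 h (-0.018 with the mean of its probe sets), had been called. The other reversals were of uncalled differences. Signs turned only with the mean of probe sets, repeated quantile normalization and median-centring. Apart from array weights, the other settings left the differences themselves unchanged, so they could change calls but not signs. With the mean of probe sets Fech was -0.13 at 48 h, 0.026 at 96 h and 0.018 at 168 h and Alas1 0.017 at 168 h. With quantile normalization repeated Blvra was -0.026 at 6 h, and at 48 h Blvrb was -0.12 and Fech -0.007. With median-centred arrays Blvra was -0.036 at 6 h, Hmox2 -0.06 at 24 h and -0.012 at 48 h, Blvrb -0.12 and Fech -0.10 at 48 h.

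The number of members called at 0 h went from 2 to 1 with each time fitted alone, with the replicate block and with a fold minimum of 1.5. At 24 h it went from 4 to 1 with quantile normalization repeated, each time alone or the fold minimum. It went to 2 with the methods' test and to 0 with the replicate block. With median-centring it was also 2, but these were Hmox1 and Alas1, which gained a call. Blvra, Blvrb and Fech all lost their 24 h calls under centring. At 48 h it went from 1 to 0 with median-centring, the fold minimum or the replicate block. Hmox1 at 24 h kept its value of -0.68 but lost its call with 24 h alone and with the replicate block (limma adjusted p = 0.0604 and 0.0891). Replicate numbers did not pair the mice: of 30 same-numbered pairs 7 had deviations correlated over 0.1 (-0.51 to 0.47), and 2 of 30 correlated best with their own number.

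Leaving out single arrays gave Hmox1 differences of 1.46 to 1.64 at 0 h, 1.01 to 1.22 at 6 h and -0.86 to -0.51 at 24 h, all still called, and 2 to 2, 1 to 1, 3 to 5, 0 to 1, 0 to 0 and 0 to 0 members called in order of time. Uncalled differences crossed 0 for Blvra at 6 h (-0.052 to 0.041) and at 48 h for Blvrb (-0.066 to 0.11), Alas1 (-0.146 to 0.041) and Fech (-0.036 to 0.091). At 24 h Fech lost its call without sham array 2 or 3 and Blvrb without sham array 5, while Alas1 gained one without sham array 2 or 5 or SPIO array 1 and Hmox2 without sham array 2. Blvra lost its call at 48 h without SPIO array 4. In a fit without sham array 1 at 0 h, added after seeing the data as were the gene lists under centring and without single arrays, the calls of the mean effect and of the time contrasts of the 6 members were as before.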
